A study of Mus musculus with 21 samples.

Results

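The genes of fatty acid synthesis and oxidation were followed in primary mouse cortical neurons. The list holds 50 genes, taken by their symbols, and all 50 were found among the 19399 genes that the 4 deposited tables share. Primary neurons were cultured from the cortices of newborn pups that were either wild type (WT) or transgenic for hTau P301S (Tau), a human tau cDNA with a tangle-forming mutation that is driven by the prion promoter. Every culture had received 1 μM AraC against dividing glia. On day 7 the Tau cultures received pre-formed fibrils at 3 μg/mL as seeds and were then kept for 18 days, by the growth notes. The sources differ on whether the WT cultures were seeded too: these notes name the transgenic cultures, while the paper's text counts the days from seeding for both genotypes. If WT cultures were not seeded, the transgene and the fibrils cannot be told apart. For the final 24 h, the medium held either DMSO, the vehicle, or AdipoRon, a small-molecule agonist of the adiponectin receptors. The sample tags put AdipoRon at 10 μM, while a treatment note has the same figure in millimolar units. RNA was sequenced from 5 Tau cultures with DMSO, 5 Tau cultures with AdipoRon, 5 WT cultures with DMSO and 6 WT cultures with AdipoRon.

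Each table gives 1 mean level per gene, as log2 CPM (counts scaled to a common library total), over the cultures of 2 groups. These pools are the 10 DMSO cultures, the 11 AdipoRon cultures, the 10 Tau cultures and the 11 WT cultures. The DMSO and AdipoRon pools share no culture and hold both genotypes, though material of the same pups entered both treatments by the study's reporting form, and the Tau and WT pools share no culture and hold both treatments. Thus, 2 differences could be taken, AdipoRon minus DMSO over both genotypes and Tau minus WT over both treatments. The response of Tau neurons alone, the response of WT neurons alone and the genotype differences under a single treatment cannot be solved from these means. Because only means were available to this description, no level or difference below has a replicate error or a test, and whether a difference exceeds the spread between cultures was not tested. A gene is described as past the fold at a difference of 0.32 or more on the log2 scale in either direction, and its count is read beside the share of all genes past the same fold.

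Fatty acids are built in the cytosol from acetyl-CoA, which Acly supplies, through malonyl-CoA, made by the acetyl-CoA carboxylases, and the palmitate made by Fasn is lengthened and desaturated at the endoplasmic reticulum. To be burned, they are activated to acyl-CoA, passed into mitochondria by the carnitine shuttle and shortened in repeated rounds of dehydrogenation, hydration, dehydrogenation and thiolysis, while very long chains start in peroxisomes. Malonyl-CoA inhibits the entry step of the shuttle, and AMPK, a kinase that responds downstream of adiponectin receptors, phosphorylates and restrains the carboxylases. In brain, most oxidation takes place in astrocytes, whereas neurons rely mainly on glucose and lactate and keep a brain form of the carnitine transferase, Cpt1c, with little transferase activity.

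The cultures are labelled as neurons, and markers of other cell types were present in every pool. Per kilobase of transcript, the neuronal genes Snap25 and Syp were at 437 and 335 CPM, and the astrocyte gene Gfap was at 652 CPM. The oligodendrocyte lineage gene Olig1 was at 283 CPM per kb and the microglial gene C1qa at 137 CPM per kb. Except for Syp, each of these genes was the highest of its list. The list medians were 82.8 CPM per kb for neuronal, 56.8 for astrocyte, 39.2 for oligodendrocyte lineage and 5.17 for microglial markers. Summed levels of the 8 neuronal markers were 4390 CPM with DMSO and 3736 CPM with AdipoRon, and 3904 CPM in WT and 4246 CPM in Tau neurons. The 8 astrocyte markers summed to 4334 CPM with DMSO, 4646 CPM with AdipoRon, 4469 CPM in WT and 4492 CPM in Tau neurons. Gfap alone was at 1661 CPM with DMSO and 2104 CPM with AdipoRon, so the treatment gap of this sum rests on Gfap. With AdipoRon 5 of the 8 astrocyte markers were higher and 3, Slc1a3, Slc1a2 and Aqp4, were lower. As a ratio of sums, the 8 microglial markers had the widest genotype gap, at 426 CPM in WT and 210 CPM in Tau neurons (0.494 of WT). All 8 were lower in Tau neurons. The 9 markers of the oligodendrocyte lineage summed to 1734 CPM in WT and 1250 CPM in Tau neurons, and all 9 were lower in Tau neurons. The part of cell composition in any difference below was not tested, and in bulk RNA fewer cells of a type and less RNA per cell cannot be told apart.

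With AdipoRon, 43 of the 50 genes had a higher mean level than with DMSO and 7 a lower one. The median difference of the 50 genes was 0.13 on the log2 scale, which is 9.66% above DMSO, beside a median of 0.03 over all 19399 genes. A positive difference was seen for 86.0% of the list, for 55.5% of all genes and for 58.0% of the 9710 genes with a mean log2 CPM over 4. The list was chosen with earlier results of these data known, and the paper reported fatty acid metabolism as positively enriched with AdipoRon in the same cultures. These shares therefore describe the chosen genes only. Of the 50 genes, 43 had a mean log2 CPM over 4, and the levels ran from 2.24 to 10.9. The differences were small. Higher by the fold were 4 genes, Acat3, Hacd2, Fasn and Pecr, or 8% of the list beside 10.9% of all genes. Lower by the fold was 1 gene, Elovl6, or 2% of the list beside 11.3% of all genes. Both shares of the list lay below those of all genes at this fold, while at a smaller fold of 0.20 on the log2 scale 14 of the 50 genes were higher, a larger share than the 20.6% of all genes. Just inside the fold lay Pecr at 1.252-fold, and just outside lay Elovl1 at 1.243-fold and Acox3 at 1.219-fold.

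**Figure D1:**
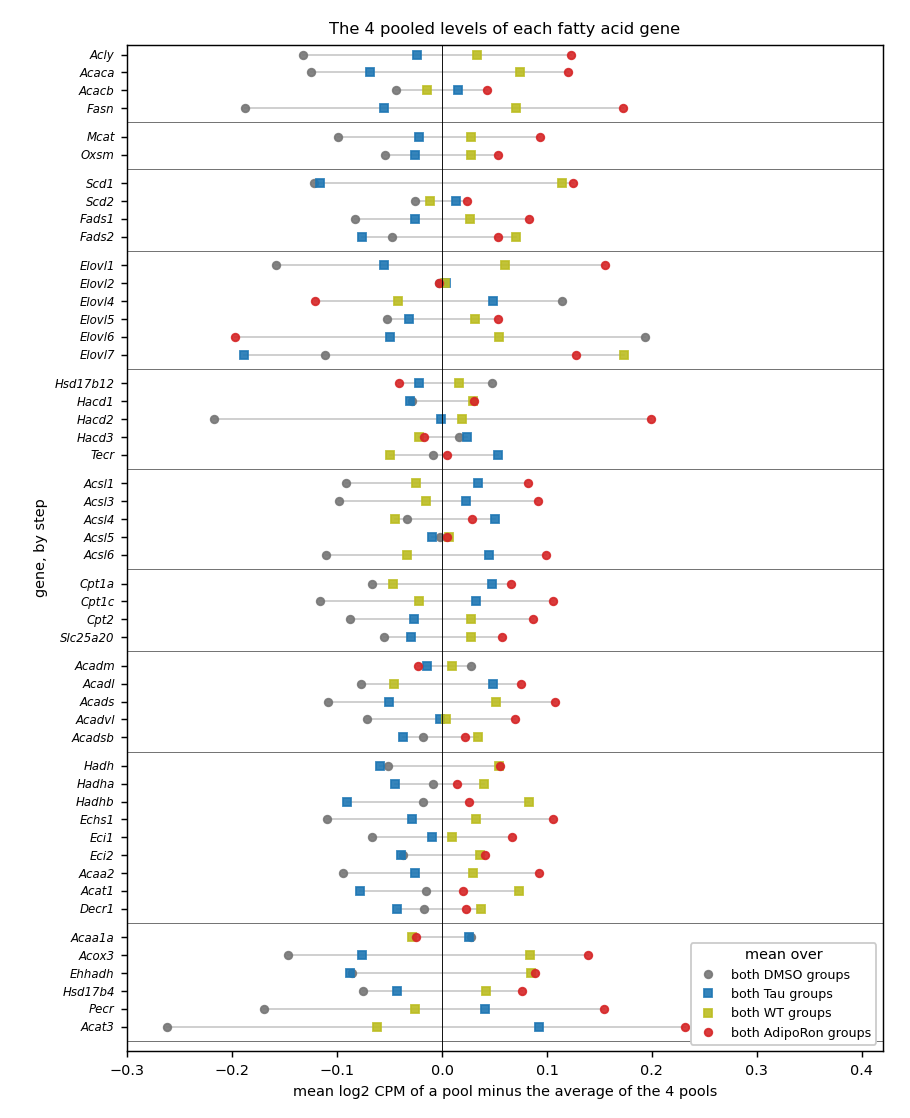
The 4 pooled levels of each of the 50 genes, as the mean log2 CPM of a pool minus the average of the 4 pools (x axis), by step (y axis). Points stand for means over both DMSO groups, both AdipoRon groups, both Tau groups or both WT groups, with no error available. The AdipoRon point lies right of the DMSO point for 43 genes, and the WT and Tau points are closer together for most genes.

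Between genotypes, 34 of the 50 genes had a lower mean level in Tau than in WT neurons and 16 a higher one. A positive difference was seen for 32.0% of the list, for 49.7% of all genes and for 43.2% of the genes with a mean log2 CPM over 4. The share of the list again describes the chosen genes only. The median difference was -0.05 on the log2 scale, beside -0.00 over all genes and -0.01 over the genes with a mean log2 CPM over 4. Elovl7 alone was lower by the fold, which is 2% of the list beside 6.72% of all genes, and 0 genes were higher by the fold beside 8.09% of all genes. Of the genes with a mean log2 CPM over 4, where 43 of the 50 lie, 0.608% were higher by the fold. Elovl7 was at -0.36 and the next gene, Scd1, at -0.23, so 49 of the 50 genes lay within the fold. Summed over the list, the level was 6578 CPM in WT and 6476 CPM in Tau neurons, and 6280 CPM with DMSO and 6770 CPM with AdipoRon.

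**Figure D2:**
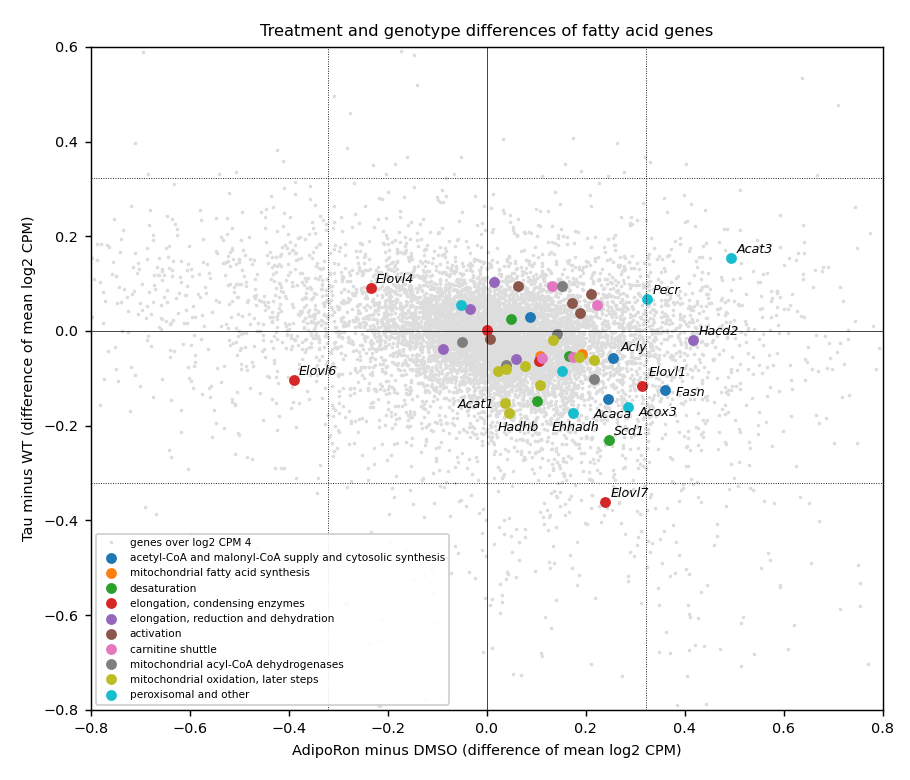
Treatment difference (x axis) against genotype difference (y axis) of mean log2 CPM for the 50 genes, coloured by step, over the genes with a mean log2 CPM over 4 in grey. Dotted lines mark a difference of 0.32 in each direction. Acat3, Hacd2, Fasn and Pecr lie beyond it on the right, Elovl6 on the left and Elovl7 below, and most of the other genes lie right of 0. All points rest on the same 21 cultures.

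Of the 5 genes past the fold with AdipoRon, Fasn, Hacd2 and Elovl6 had a mean log2 CPM over 4, and the 250 bases before their RefSeq start (GRCm38.p6, read along the gene's strand) are shown because these are the genes past the fold with higher mean levels. Capitals mark matches, on either strand, to a CCAAT box (CCAAT, bound by NF-Y), a GC box (GGGCGG, bound by Sp1), a sterol response element (TCACNCCAC, bound by SREBP) or an E-box (CACGTG). The search also allowed overlapping matches.
Fasn, chr11:120824548-120824797, minus strand: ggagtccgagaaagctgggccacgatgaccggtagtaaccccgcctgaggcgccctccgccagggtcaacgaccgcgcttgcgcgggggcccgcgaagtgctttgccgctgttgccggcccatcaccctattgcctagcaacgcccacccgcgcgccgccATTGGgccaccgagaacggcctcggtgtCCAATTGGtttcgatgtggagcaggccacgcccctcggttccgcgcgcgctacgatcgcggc
Hacd2, chr16:35022171-35022420, plus strand: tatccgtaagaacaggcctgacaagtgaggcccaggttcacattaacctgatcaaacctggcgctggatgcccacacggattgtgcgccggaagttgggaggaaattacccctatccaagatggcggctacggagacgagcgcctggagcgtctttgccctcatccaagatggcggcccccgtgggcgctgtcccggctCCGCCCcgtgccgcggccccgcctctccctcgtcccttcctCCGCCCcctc
Elovl6, chr3:129532136-129532385, plus strand: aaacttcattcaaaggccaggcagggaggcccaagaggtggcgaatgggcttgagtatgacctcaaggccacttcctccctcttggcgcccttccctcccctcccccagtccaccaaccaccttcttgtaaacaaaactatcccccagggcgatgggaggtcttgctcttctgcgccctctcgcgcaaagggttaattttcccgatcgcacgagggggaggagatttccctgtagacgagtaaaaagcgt
Fasn, higher with AdipoRon, held 3 CCAAT boxes, which begin 90, 62 and 59 bases before the start, the last 2 of them overlapping. Hacd2, also higher, held 2 GC boxes, and Elovl6, lower with AdipoRon, held no match to any of the 4 motifs in this window. RefSeq promoters were matched for 41 of the 50 genes, at 48 starts. A GC box was present in 77.1% of these windows and in 32.7% of all 32851 windows, and a CCAAT box in 39.6% and 33.8%. A sterol response element was present in 2 of the 48 windows, those of Ehhadh and 1 start of Acsl1 (4.17%, beside 1.05% of all windows). An E-box was present in 2 of the 48 (4.17%, beside 6.02%). The genes with no matched promoter included Scd1, Scd2 and Fads1. The windows of all starts were not matched to the list for expression level, and 43 of the 50 genes lay above the median level of all genes. These shares thus do not show a trait particular to fatty acid genes. A match is a run of letters, not a bound site.

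Synthesis in the cytosol was higher with AdipoRon for all 4 genes, with a median difference of 0.25 on the log2 scale (18.96%). Fasn, the multi-enzyme that builds palmitate, had a mean log2 CPM of 8.28 with DMSO, 8.64 with AdipoRon, 8.54 in WT and 8.42 in Tau neurons. Its AdipoRon level was 28.4% above DMSO, a difference larger than that of 93.9% of the genes with a mean log2 CPM over 4. Acly, which cleaves citrate into acetyl-CoA, was at 7.65 with DMSO and 7.90 with AdipoRon, 19.4% above. Acaca, the cytosolic carboxylase that makes malonyl-CoA for synthesis, was at 5.54 and 5.78, 18.5% above, and 52.6% of the 50-base windows of its transcript recur in other transcripts, mostly of Gm5182, so its reads could be shared. Acacb, the mitochondrial form, whose malonyl-CoA regulates the shuttle, was the lowest gene of the list per kilobase (0.985 CPM per kb) and differed by 0.09 on the log2 scale. In Tau against WT neurons, Acaca (-0.14), Fasn (-0.13) and Acly (-0.06) were lower and Acacb (0.03) higher, all within the fold. The mitochondrial synthesis genes Mcat and Oxsm, whose pathway feeds lipoic acid formation, were 0.19 and 0.11 higher with AdipoRon and each 0.05 lower in Tau neurons (log2).

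Of the desaturases, 3 were among the 4 highest genes of the list per kilobase. Scd2, the main stearoyl-CoA desaturase of brain, was at 339 CPM per kb, the highest of the 50 genes, and Fads2 and Fads1, which desaturate polyunsaturated chains, followed Tecr at 90.2 and 81.9 CPM per kb, while Scd1 was at 43.9 CPM per kb. With each gene's longest transcript, Fads2 was at 58.1 CPM per kb, below Hsd17b12. The abundant Scd2 was nearly level between pools, at a mean log2 CPM of 10.83 with DMSO and 10.88 with AdipoRon, and 10.84 in WT and 10.87 in Tau neurons. Its paralog Scd1 was at 7.66 with DMSO and 7.91 with AdipoRon, 18.6% above. The same gene was at 7.90 in WT and 7.67 in Tau neurons, a difference of -0.23 and lower than all but 4.97% of the genes with a mean log2 CPM over 4. The desaturases Fads1 and Fads2 differed by 0.17 and 0.10 with AdipoRon and by -0.05 and -0.15 in Tau neurons. Each of the 4 desaturases was thus higher with AdipoRon, and 0 of them was past the fold.

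**Figure D3:**
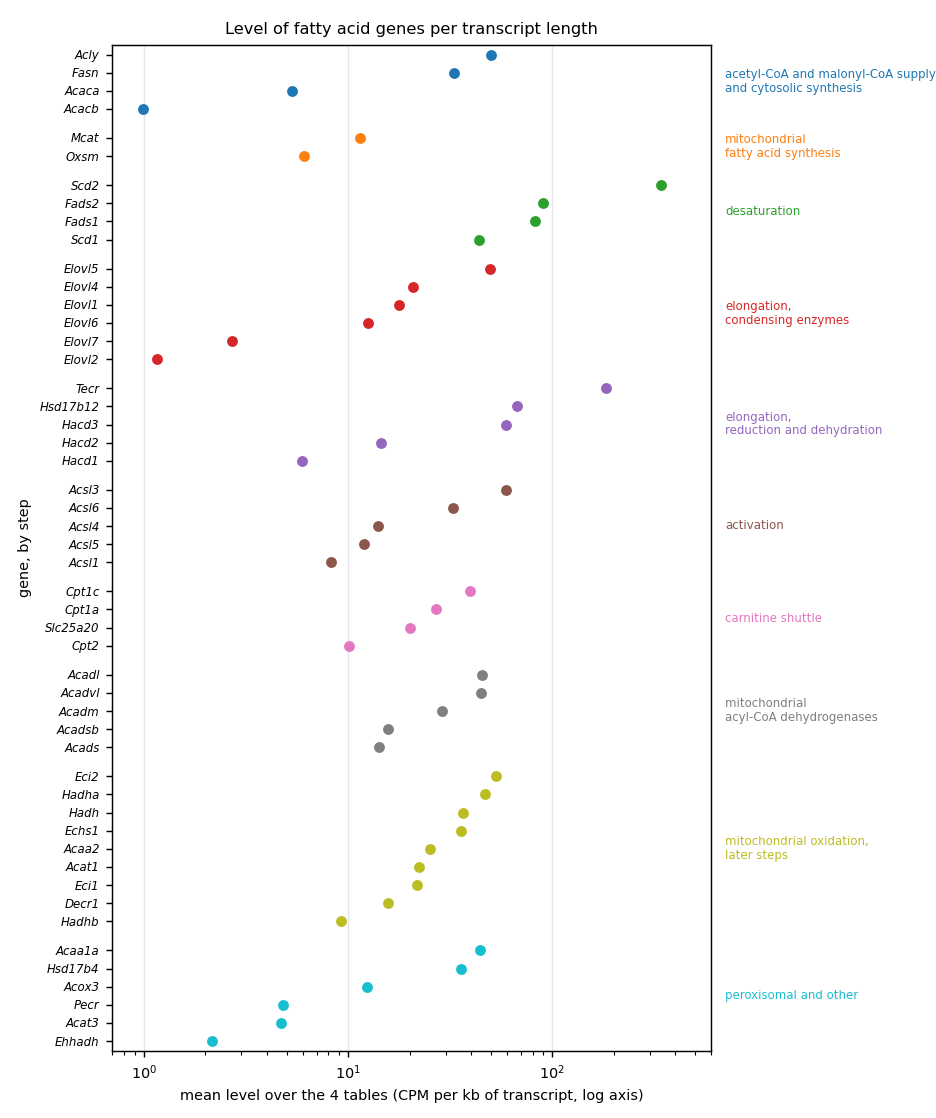
Mean level of the 50 genes over the 4 tables, in CPM per kb of transcript on a log axis (x axis), by step (y axis). Levels span from 0.985 for Acacb to 339 for Scd2. Within a step they span, for example, from 1.16 to 49.7 among the condensing enzymes and from 14.2 to 45.1 among the acyl-CoA dehydrogenases.

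Elongation genes differed in both directions, with Elovl6 and Hacd2 past the fold on opposite sides. The condensing enzymes, the ELOVL family, set which chain is lengthened. With AdipoRon, Elovl6, which takes palmitate to stearate, was at a mean log2 CPM of 6.06 against 6.45 with DMSO, 1.31-fold lower, and this difference was lower than that of all but 5.62% of the genes with a mean log2 CPM over 4. Elovl4, which makes the longest chains, was also lower, at 5.89 against 6.13. Elovl1, which lengthens saturated very long chains, was higher, at 5.24 against 4.92, and so were Elovl7 (4.01 against 3.77) and Elovl5 (7.26 against 7.15). Elovl2, which lengthens polyunsaturated chains, had the lowest level of the family per kilobase (1.16 CPM per kb) and the same mean log2 CPM, to 2 decimals, in 3 of the 4 pools.

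Between genotypes, Elovl7 had the widest gap of the list, with a mean log2 CPM of 4.05 in WT and 3.69 in Tau neurons, 1.29-fold lower. Elovl7 is known in brain for its expression in oligodendrocytes, and beside its difference stand the 9 oligodendrocyte lineage markers, whose differences ran from -1.64 to -0.17 with a median of -0.75. The part of these cells in the Elovl7 difference was not tested. The other condensing enzymes lay between -0.12 (Elovl1) and 0.09 (Elovl4).

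The remaining elongation enzymes reduce and dehydrate the lengthened chain. Hacd2, a dehydratase, was at a mean log2 CPM of 5.81 with DMSO and 6.22 with AdipoRon, 33.5% above, with a difference larger than that of 95.8% of the genes with a mean log2 CPM over 4. In WT and Tau neurons it was at 6.04 and 6.02. Its paralogs Hacd1 and Hacd3 differed by 0.06 and -0.03 with AdipoRon, so the wide difference was seen for Hacd2 among these dehydratases. Tecr, the final reductase, stood at 182 CPM per kb and differed by 0.01 with AdipoRon and by 0.10 in Tau neurons. Hsd17b12, the ketoacyl reductase, was at -0.09 with AdipoRon and at -0.04 in Tau neurons.

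All 5 acyl-CoA synthetases, which activate fatty acids for every later use, were higher with AdipoRon, with a median difference of 0.17 on the log2 scale and 0 genes past the fold, though Acsl5 lay just below 0 (-0.02) once the median of all genes was subtracted. Acsl6, a brain form tied to the retention of docosahexaenoic acid, was at a mean log2 CPM of 7.49 with DMSO and 7.70 with AdipoRon. Acsl3, which acts at lipid droplets and had the highest level of the family (59.3 CPM per kb), was at 7.72 and 7.91. Acsl1 differed by 0.17, Acsl4 by 0.06 and Acsl5 by 0.01. In Tau neurons 4 of the 5 synthetases were higher, from 0.04 for Acsl3 to 0.10 for Acsl4, and Acsl5 was at -0.02.

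The carnitine shuttle was higher with AdipoRon for all 4 genes, between 0.11 and 0.22 on the log2 scale. Cpt1c, the brain form named above, was at a mean log2 CPM of 6.68 with DMSO and 6.91 with AdipoRon and had the highest level of the step (39.6 CPM per kb). Cpt1a, the transferase of the outer membrane in most tissues, was at 7.40 and 7.53. Cpt2 and the carrier Slc25a20, which act at the inner membrane, differed by 0.17 and 0.11. Genotype differences had a median of -0.00 to 2 decimals, with Cpt1a at 0.09 and Slc25a20 at -0.06.

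In mitochondria, the first oxidation step is carried out by acyl-CoA dehydrogenases of different chain lengths. With AdipoRon 4 of these 5 genes were higher. Acads, for short chains, was at a mean log2 CPM of 4.62 with DMSO and 4.84 with AdipoRon, Acadl was at 6.74 and 6.89, and Acadvl was at 6.56 and 6.70. Acadm, for medium chains, was at 5.91 and 5.86, and Acadsb, which works in isoleucine breakdown, differed by 0.04. Acadl and Acadvl had the highest levels of the step, at 45.1 and 44.8 CPM per kb, and with each gene's longest transcript their order turned, at 34.0 and 36.7. In Tau neurons the step lay between -0.10 (Acads) and 0.09 (Acadl).

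The 9 genes of the later mitochondrial steps had 1 sign in each difference. All 9 were higher with AdipoRon, from 0.02 to 0.22 with a median of 0.08. All 9 were lower in Tau neurons, from -0.17 to -0.02 with a median of -0.08, and 0 were past the fold in either. Of the genes with a mean log2 CPM over 4, 58.0% had a positive difference with AdipoRon and 43.2% in Tau neurons. Once the median of all genes was subtracted, Hadha was at -0.003 with AdipoRon and the other 8 kept their sign. Echs1, the hydratase of short chains, had the widest treatment difference, with a mean log2 CPM of 6.27 with DMSO and 6.49 with AdipoRon. Acaa2, a thiolase, followed at 0.19 and Eci1, an isomerase for unsaturated chains, at 0.13. Hadha and Hadhb, the subunits of the trifunctional protein, differed by 0.02 and 0.04 with AdipoRon. Eci2 was at 53.0 CPM per kb and Hadha at 46.8, and with each gene's longest transcript they were at 19.7 and 45.6, so the order of the levels depends on the transcript.

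In the genotype difference of these steps, Hadhb was at a mean log2 CPM of 4.32 in WT and 4.14 in Tau neurons and Acat1, which makes and splits acetoacetyl-CoA, at 6.62 and 6.47. Hadhb was listed at 9.26 CPM per kb beside 46.8 for Hadha, and 63.0% of the 50-base windows of its transcript recur elsewhere, mostly in Hadhb-ps, so its counts are uncertain, as is its length. The electron transfer genes Etfa, Etfb and Etfdh, which take electrons from the dehydrogenases, were outside the list and had the same signs, from 0.06 to 0.15 with AdipoRon and from -0.11 to -0.07 in Tau neurons. Beside these lower levels in Tau neurons stand the microglial markers at 0.494 of their WT sum and the neuronal markers at 1.09 of theirs, and their part in the difference was not tested.

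The last step gathers peroxisomal and other genes, of which 5 of 6 were higher with AdipoRon, with a median difference of 0.23. Acox3, an oxidase of branched chains, was at a mean log2 CPM of 5.49 with DMSO and 5.78 with AdipoRon, 21.9% above. Pecr, an enoyl-CoA reductase, was at 2.84 and 3.16. Hsd17b4 and Ehhadh, the multifunctional enzymes of the middle steps, were 0.15 and 0.17 higher, and the thiolase gene Acaa1a was at -0.05. Acat3, a thiolase counted with this step, had the widest treatment difference of the list, with a mean log2 CPM of 3.05 with DMSO and 3.54 with AdipoRon, 40.8% above. Acat3 shares 48.7% of its 50-base windows with other transcripts, mostly those of Acat2, an enzyme of cholesterol synthesis, and Acaa1a shares 33.2%, mostly with Acaa1b, so the values of both are uncertain. Of the 50 genes, 6 shared over 10% of their windows, the others being Hadhb and Acaca above, Hacd1 (28.5%) and Tecr (11.1%). In Tau neurons the step ran from -0.17 for Ehhadh to 0.15 for Acat3.

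Further genes of fatty acid handling were described from lists beside the 50. These lists were also chosen with earlier results of these data known, so their shares describe the chosen genes only. Of 17 regulators, 9 were higher with AdipoRon (52.9%, beside 55.5% of all genes) and the median difference was 0.02. Thrsp, a factor that accompanies lipogenesis, was the highest at 0.72, with a mean log2 CPM of 4.15 with DMSO and 4.87 with AdipoRon, and Ppargc1a, a coactivator of oxidative genes, the lowest at -0.41, with 6.90 and 6.49. Also past the fold, and chosen after their values were seen, were Mlxipl (0.52) and Insig1 (0.37) above and Ppargc1b (-0.35) below. By the fold, 3 of the 17 were thus higher (17.6%, beside 10.9% of all genes) and 2 lower (11.8%, beside 11.3%). The SREBP genes Srebf1 and Srebf2, which drive lipogenic and sterol genes and were likewise chosen after seeing their values, were at -0.07 and -0.04.

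Storage and lipolysis genes were higher for 12 of 13 (92.3%, beside 55.5% of all genes), with a median of 0.23. Of the 13, 4 were past the fold (30.8% beside the 10.9% above). The list was chosen with earlier results of these data known, so these shares describe the chosen genes only. Plin4, a coat protein of lipid droplets, differed most, with a mean log2 CPM of 1.75 with DMSO and 3.10 with AdipoRon. The other genes past the fold, chosen after their values were seen, were Plin3 (0.48), Lpin1 (0.45) and Plin2 (0.38), the first and last of them also droplet proteins, and Agpat1 was the lowest at -0.07. Among 8 genes of uptake and binding, Fabp5, a fatty acid binding protein, was the highest at 0.75 and Fabp7, its counterpart of radial glia and astrocytes, the lowest at -0.31. Slc27a1, a transporter chosen after its value was seen, was at 0.35. By the fold, 2 of these 8 genes were higher (25%, beside 10.9% of all genes) and 0 lower (beside 11.3%).

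Of 16 further oxidation genes measured in all 4 tables, 12 were higher with AdipoRon (75%, beside 55.5% of all genes), with a median of 0.11. By the fold, 1 was higher and 1 lower (6.25% each, beside 10.9% and 11.3% of all genes). Acad12 was the highest at 0.40, and Abcd2, a peroxisomal importer, the lowest at -0.59, with a mean log2 CPM of 5.77 with DMSO and 5.17 with AdipoRon. Cpt1b, the muscle form of the transferase, was listed with the WT and AdipoRon pools only and was not compared.

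In Tau against WT neurons, these further lists had medians between -0.09 for uptake and binding and 0.03 for storage and lipolysis. Past the fold were Fabp5, with a mean log2 CPM of 5.95 in WT and 5.46 in Tau neurons, and Cd36, a fatty acid receptor, with 3.66 and 4.02. Each is 1 of the 8 uptake and binding genes (12.5%, beside 8.09% of all genes higher and 6.72% lower). Of the 17 regulators, 13 storage and lipolysis genes, 3 electron transfer genes and 16 further oxidation genes, 0 were past the fold in either direction. The extremes of the other lists were Srebf1 (-0.20) and Mlxipl (0.23), Plin3 (-0.13) and Plin4 (0.30), and Acaa1b (-0.22) and Mlycd (0.06).

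**Figure D4:**
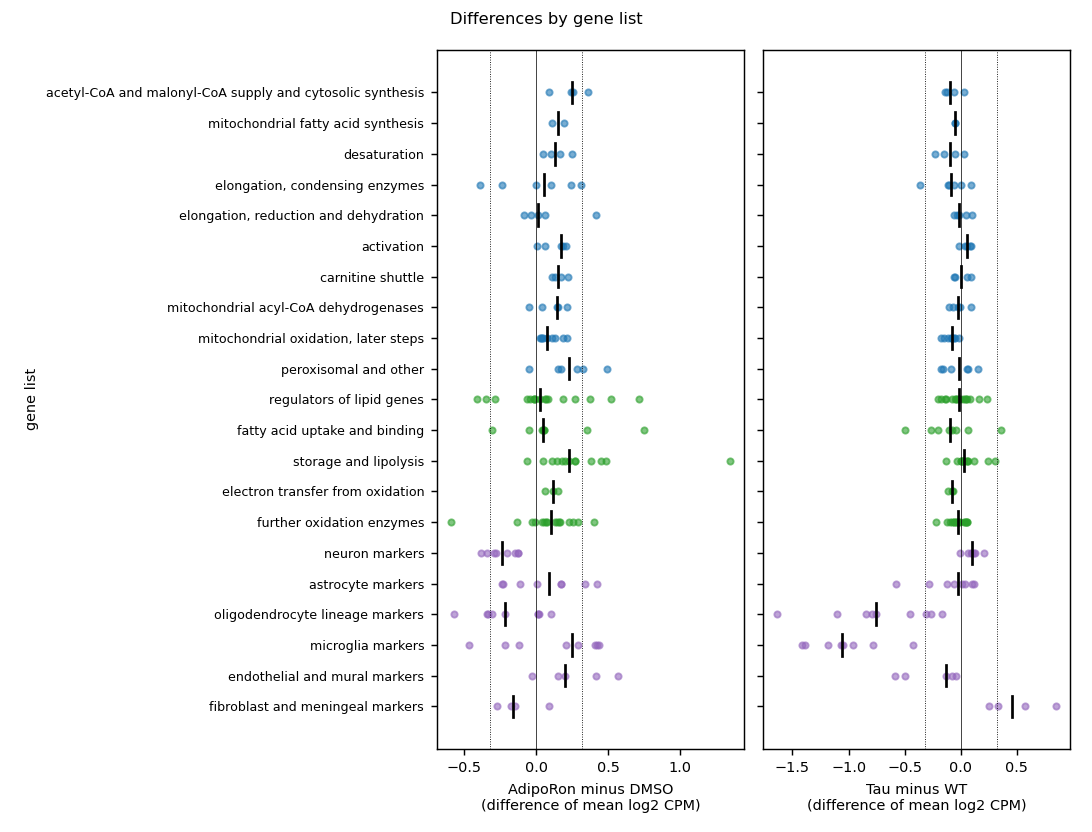
Differences of mean log2 CPM by list, AdipoRon minus DMSO (left) and Tau minus WT (right). Each point is a gene and each bar the median of its list, with the steps of the 50 genes in blue, further lists in green and cell type markers in purple, and dotted lines mark a difference of 0.32 in each direction. The step medians lie between 0.01 and 0.25 on the left and between -0.10 and 0.06 on the right, while the microglial median lies at -1.06 on the right.

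Cell type markers differed between the treatment pools as well. All 8 neuronal markers were lower with AdipoRon, from -0.38 for Nefl to -0.13 for Tubb3, with a median of -0.24. Astrocyte markers ran from -0.24 for Slc1a3 to 0.42 for Aldh1l1 with a median of 0.09, 5 of 8 were higher, and Gfap was at 0.34. Microglial markers had a median of 0.25, from -0.47 for Cx3cr1 to 0.44 for C1qb, and those of the oligodendrocyte lineage a median of -0.22. The endothelial and mural markers, of which 5 of 6 were measured, summed to 38.8 CPM with DMSO and 44.9 CPM with AdipoRon, and the 4 fibroblast and meningeal markers to 55.1 and 50.0 CPM. Between genotypes, the endothelial and mural sum was 43.7 CPM in WT and 39.8 CPM in Tau neurons, and the fibroblast and meningeal sum was 45.9 CPM in WT and 59.1 CPM in Tau neurons. The higher fatty acid genes with AdipoRon thus stood beside lower neuronal markers, and the part of the one in the other was not tested.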

How the data were processed

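RNA was sequenced from 21 cultures, grouped by genotype and treatment as in their titles. The authors, per their methods and processing notes, mapped trimmed reads with STAR to mm10, estimated gene abundance by RSEM and fitted GLMs with edgeR. Another build is named elsewhere in the paper, and the deposited tables are named for Rsubread rather than RSEM, tools that treat shared reads differently, so the counter behind the values is uncertain. Normalization of libraries and the filter on low genes are not given in the sources used here.

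The deposited tables hold, per gene, the authors' fold change, likelihood ratio, p-value, false discovery rate and call for a comparison, which were not used here, and the authors' mean expression as log2 CPM over the cultures of both groups, which was. The authors' edgeR mean usually includes a small prior count, which draws low genes together. With means only, the depth per culture is unknown, no error can be given, and no model, test or pairing was possible.

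Differences were taken between tables that share no culture, over the 19399 genes in all 4 tables. Sums of linear means over complementary pools matched within 0.0111 (log2) for all 50 genes, which checks the arithmetic and not the replicates. The subtraction was tested on simulated pools of equal weight and without noise, which checks the arithmetic only. Levels per kb used the GENCODE vM39 transcript of the longest coding sequence, with ties going to the canonical transcript. Windows of 50 bases every 5 bases were searched for in the transcripts of other genes. Promoters came from RefSeq (GRCm38.p6). Python 3.11.15 and pandas 2.3.3 were used.

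Genes named include those past the fold, the highest-level gene of each step, and the largest differences of each step or list. Further members of the steps were named beside them. The genes and lists were chosen with earlier results of these data known. Alternatives were 2 centrings, 2 filters, a smaller and a larger fold, linear averaging, and 2 other transcript lengths (the canonical one added after seeing the data). Of the further lists, 1 is not reported here.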

Additional observations from a re-analysis of the deposited data

How the results depend on the processing

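No paired analysis was possible because the tables hold means over both groups, with no value per culture, and for the same reason no replicate could be left out. Centring the treatment difference on the median of all genes, or of genes with a mean log2 CPM over 4, put the median of the 50 genes at 0.107 or 0.103, left 40 of them above 0, turned Tecr, Acsl5 and Hadha below 0 (-0.01, -0.02 and -0.003, or -0.02, -0.02 and -0.008) and moved Pecr within the fold (0.298 or 0.293). The second centring put their genotype median at -0.0403 and Acadvl at 0.007. With genes over log2 CPM 4 only, 43 of the 50 remained, 2 were higher with AdipoRon and 0 lower in Tau neurons, beside 7.86% of genes higher and 7.48% lower with AdipoRon and 0.608% higher and 2.75% lower in Tau neurons. With a log2 CPM of 1 or more in every table, 1.44% of genes were higher in Tau neurons, beside 8.09% without that filter. At a smaller fold (0.20 on the log2 scale), 14 of the 50 genes were higher and 2 lower with AdipoRon (20.6% and 17.7% of all genes), so the higher share of the list then lay above that of all genes, and 2 were lower in Tau neurons (14.2% of all genes higher and 11.5% lower). At a fold of 1.5, 0 were higher and 0 lower with AdipoRon (2.90% and 4.88% of all genes), and 0 lower in Tau neurons (2.14% higher and 2.65% lower). Each gene's longest transcript put the median level at 16.3 CPM per kb, against 21.9, since longer transcripts divide the same CPM by more. No sign of a gene past the fold turned under either centring, which could not have happened because the subtracted medians were smaller than the fold. Without errors or depth, differences of this size cannot be told from the spread between cultures.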
